A study of Homo sapiens and Mus musculus with 21 samples.

Results

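The host caecum of mice carrying SW620 dnLEF1 tumours was compared with that of mice carrying SW620 Mock tumours, using mouse transcripts only. The compared groups hold 6 of the 21 libraries in the series, 3 per group, assigned by their labels and not by any measured value. The comparison itself was chosen with earlier results of these data known. The spread behind each p-value was estimated over all 21. SW620 is a human colon carcinoma line. In the SW620 dnLEF1 group the cells had been transduced with a lentivirus carrying a dominant negative form of LEF1, and in the SW620 Mock group with a mock lentivirus. Both groups, like all others in the series, are caecum of immunodeficient NSG mice. Cells were injected into the caecum wall, and the mice were monitored for 28 days before harvest. Further libraries used here are SW620 LRP6KO (CRISPR/Cas9 against the Wnt co-receptor LRP6, sorted for low LRP6 protein), SW620 Cas9 (mock CRISPR/Cas9, sorted), SW480 dnLEF1 and SW480 Mock (the same lentiviral pair in the carcinoma line SW480) and PBS (injection without tumour cells), with 3 libraries each. The construct acts in the injected human cells, and the mouse tissue itself was not modified. The design speaks of biological triplicates. The labels do not tie libraries to single animals, so the p-values measure the spread between these libraries.

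LEF1 belongs to the TCF/LEF family of transcription factors, which bind Wnt target genes and switch them on together with beta-catenin. A dominant negative form binds the same DNA but lacks the part that recruits beta-catenin, and so holds target genes down. Caecum tissue holds epithelium, fibroblasts, smooth muscle, vessels, nerves and immune cells, and a tumour in the caecum wall adds human cells to the sampled piece. NSG mice lack mature T, B and natural killer cells. Whole pieces were sequenced, so fewer cells of a type and less RNA per cell cannot be told apart.

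Values are TPM, the number of transcripts of a gene in 1000000 mouse transcripts of a library, scaled for transcript length. They have the same sum in each library, so neither the depth nor the mouse share of a library is known. The mouse table names genes by Ensembl identifier. None of the 54146 identifiers was found in the name tables used here, so host genes are given by identifier, without a name or role, and the labelled tissue was not checked against its markers. Human LEF1 in the human table of the same libraries was at 18.25, 22.51 and 23.98 TPM in SW620 dnLEF1 tumours, against 0.3, 0.8 and 0.59 TPM in SW620 Mock tumours. The groups did not overlap, which is the direction that the labels give.

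The 6 host libraries differed in how many mouse genes were above 0 TPM. The SW620 dnLEF1 libraries had 24503, 24350 and 27749 such genes, against 30469, 31709 and 29901 in the SW620 Mock libraries. At 1 TPM or more the counts overlapped, at 15634, 15551 and 16420 genes in SW620 dnLEF1 and 15613, 16053 and 16928 in SW620 Mock. The part that detection plays in the results was not tested. The first principal component of the mouse table held 20.7% of the variance over all 21 libraries. Its scores were 40.3, 53.4 and 24.6 in SW620 dnLEF1, against -9.6, -8.6 and 5 in SW620 Mock. SW620 Cas9 libraries scored 46.4, 17.7 and 50.6, within or just below the range of SW620 dnLEF1, although they carry no dnLEF1. PBS libraries lay at the other end, at -31.2, -46 and -58.3. For the scores and for the genes above 0, the exact two-sided permutation test of 3 SW620 dnLEF1 against 3 SW620 Mock libraries gave p = 0.1, which is the smallest p that 3 against 3 can give.

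**Figure D1:**
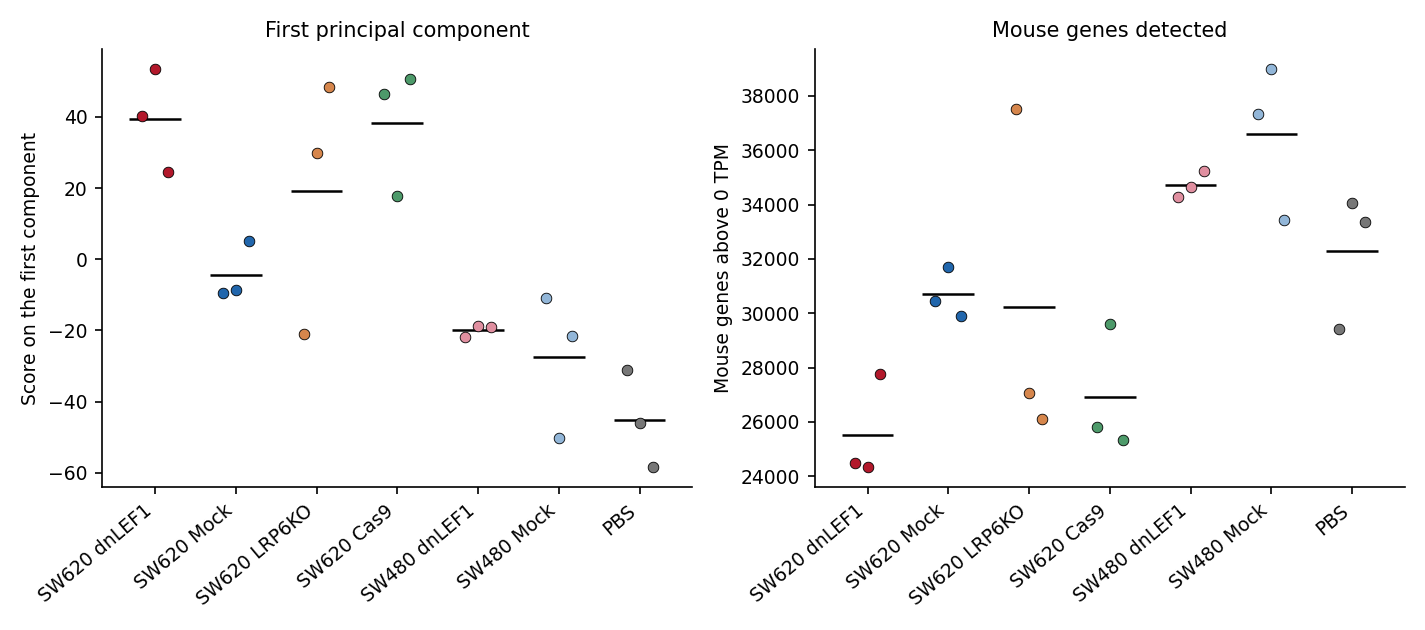
Score on the first principal component (left) and number of mouse genes above 0 TPM (right) for each of the 21 libraries; points are libraries and lines are group means. SW620 dnLEF1 and SW620 Mock do not overlap in either panel. On the component, SW620 Cas9 lies on the side of SW620 dnLEF1, and PBS lies on the other side of SW620 Mock.

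The whole profiles of SW620 dnLEF1 and SW620 Mock hosts were compared by correlation. Over the tested genes, log2 values correlated at 0.944 to 0.949 (Pearson's r) between SW620 dnLEF1 libraries and at 0.950 to 0.964 between SW620 Mock libraries, and at 0.934 to 0.952 between a library of each group. These correlations are across genes, which are not independent replicates. The range between the groups spans that within SW620 dnLEF1 and meets only the lower end of that within SW620 Mock. SW620 dnLEF1 libraries correlated at 0.929 to 0.957 with SW620 Cas9 libraries and at 0.902 to 0.935 with PBS libraries. The median SD between libraries of a group was 0.24 log2 units in SW620 dnLEF1 and 0.22 in SW620 Mock.

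Which host genes differed with dnLEF1 in the SW620 tumour cells? By limma on log2(TPM + 1), 5 of 19672 tested genes (0.0254%) had a Benjamini-Hochberg adjusted p under 0.05, and these are referred to as called. Of them, 3 rose (0.0153%) and 2 fell (0.0102%) in SW620 dnLEF1 hosts, with sizes from 0.96 to 2.23 on the log2 scale. A change on this scale understates the fold of genes with low TPM. Before adjustment, 2364 genes (12%) had a p under 0.05, with 1129 higher and 1235 lower in SW620 dnLEF1. At a looser adjusted p of 0.1, 99 genes (0.503%) passed, 60 higher and 39 lower.

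**Figure D2:**
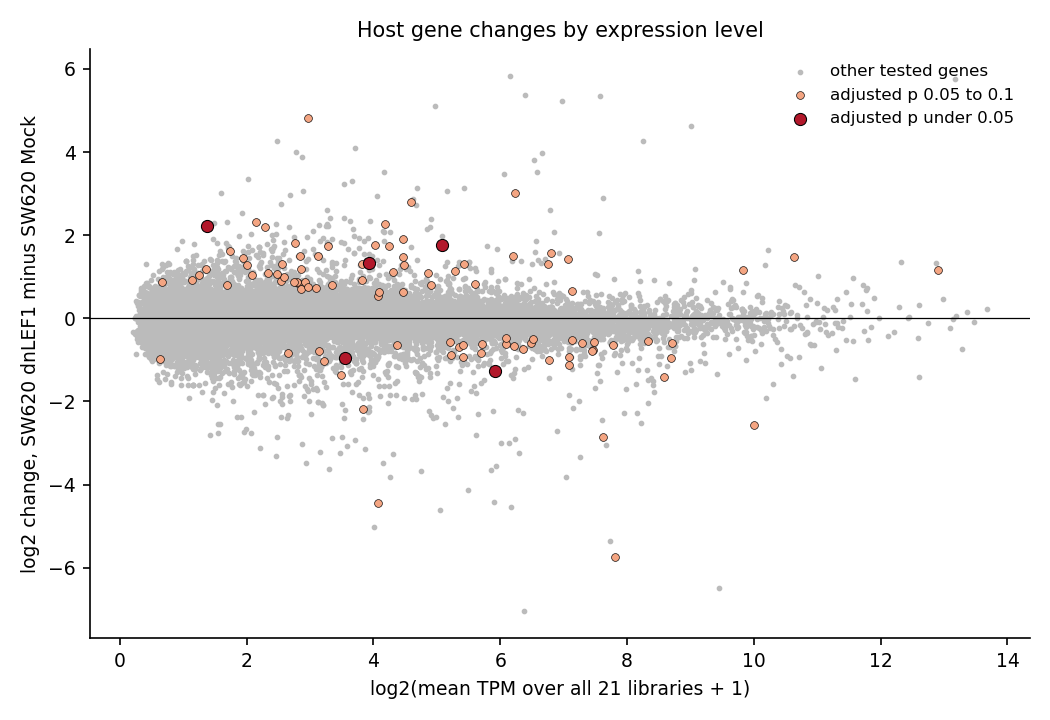
Log2 change of each of the 19672 tested host genes (SW620 dnLEF1 minus SW620 Mock, y axis) against its mean level over all 21 libraries (log2 of TPM + 1, x axis). Red points are the 5 called genes, orange points the genes with an adjusted p between 0.05 and 0.1, and grey points all other tested genes, among them most of the large changes.

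The called gene with the largest rise among those at 5 TPM or more was ENSMUSG00000031972.5. It was at 38.37, 55.73 and 51.97 TPM in SW620 dnLEF1 hosts, against 11.31, 10.6 and 20.57 TPM in SW620 Mock hosts. Every SW620 dnLEF1 library lay above every SW620 Mock library, and SW620 Mock replicate 3 was the nearest to them. The group means were 48.7 ± 9.13 TPM and 14.2 ± 5.56 TPM (SD, n = 3 each). On the log2 scale the gene rose by 1.75 (standard error 0.24, limma adjusted p 0.0119). The same gene averaged 72.7 ± 9.70 TPM in SW620 Cas9 and 48.6 ± 7.50 TPM in SW620 LRP6KO hosts, neither of which carries dnLEF1, and 14.7 ± 0.29 TPM in PBS caecum (SD, n = 3 each). SW620 Mock hosts were therefore near the PBS level, and the other SW620 groups were above it.

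ENSMUSG00000072941.5 also rose. Its values were 21.14, 18.44 and 16.9 TPM in SW620 dnLEF1 hosts, against 5.28, 6.32 and 9.8 TPM in SW620 Mock hosts. The groups did not overlap, and SW620 Mock replicate 3 was again the highest of its group. The log2 change was 1.32 (standard error 0.21, limma adjusted p 0.0423). Levels were 22.1 ± 3.39 TPM in SW620 LRP6KO, 27.7 ± 2.19 TPM in SW620 Cas9 and 3.66 ± 0.58 TPM in PBS (SD, n = 3 each), so that every xenograft library of SW620 stood above the 3.18 to 4.31 TPM of PBS. The third called rise was in a gene under 5 TPM, which the naming rule leaves out. It was at 2.08, 2.83 and 7.7 TPM in SW620 dnLEF1 and was listed at 0 in all 3 SW620 Mock libraries, while PBS libraries held 0, 0.72 and 0.74 TPM.

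The largest called fall was in ENSMUSG00000034785.14. It was at 28.61, 24.77 and 38.66 TPM in SW620 dnLEF1 hosts, against 74.5, 81.27 and 67.47 TPM in SW620 Mock hosts. No library of either group came near the other group. The means were 30.7 ± 7.17 TPM and 74.4 ± 6.90 TPM (SD, n = 3 each), and the gene fell by 1.27 on the log2 scale (standard error 0.16, limma adjusted p 0.00592). It averaged 40.9 ± 3.37 TPM in SW620 LRP6KO and 38.8 ± 4.18 TPM in SW620 Cas9, against 88.7 ± 7.81 TPM in PBS (SD, n = 3 each). As with the first called rise, SW620 Mock was the SW620 group with the level nearest to PBS.

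ENSMUSG00000029499.11 fell by 0.96 on the log2 scale (standard error 0.14, limma adjusted p 0.0119). Its values were 8.46, 6.25 and 7.25 TPM in SW620 dnLEF1 hosts, against 14.91, 15.54 and 14.92 TPM in SW620 Mock hosts. The SW620 Mock libraries spanned less than 1 TPM and lay well above all SW620 dnLEF1 libraries. SW620 LRP6KO hosts were at 9.28, 6.97 and 7.76 TPM and SW620 Cas9 hosts at 7.52 ± 0.16 TPM, and PBS caecum was at 13.8 ± 1.33 TPM (SD, n = 3 each).

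**Figure D3:**
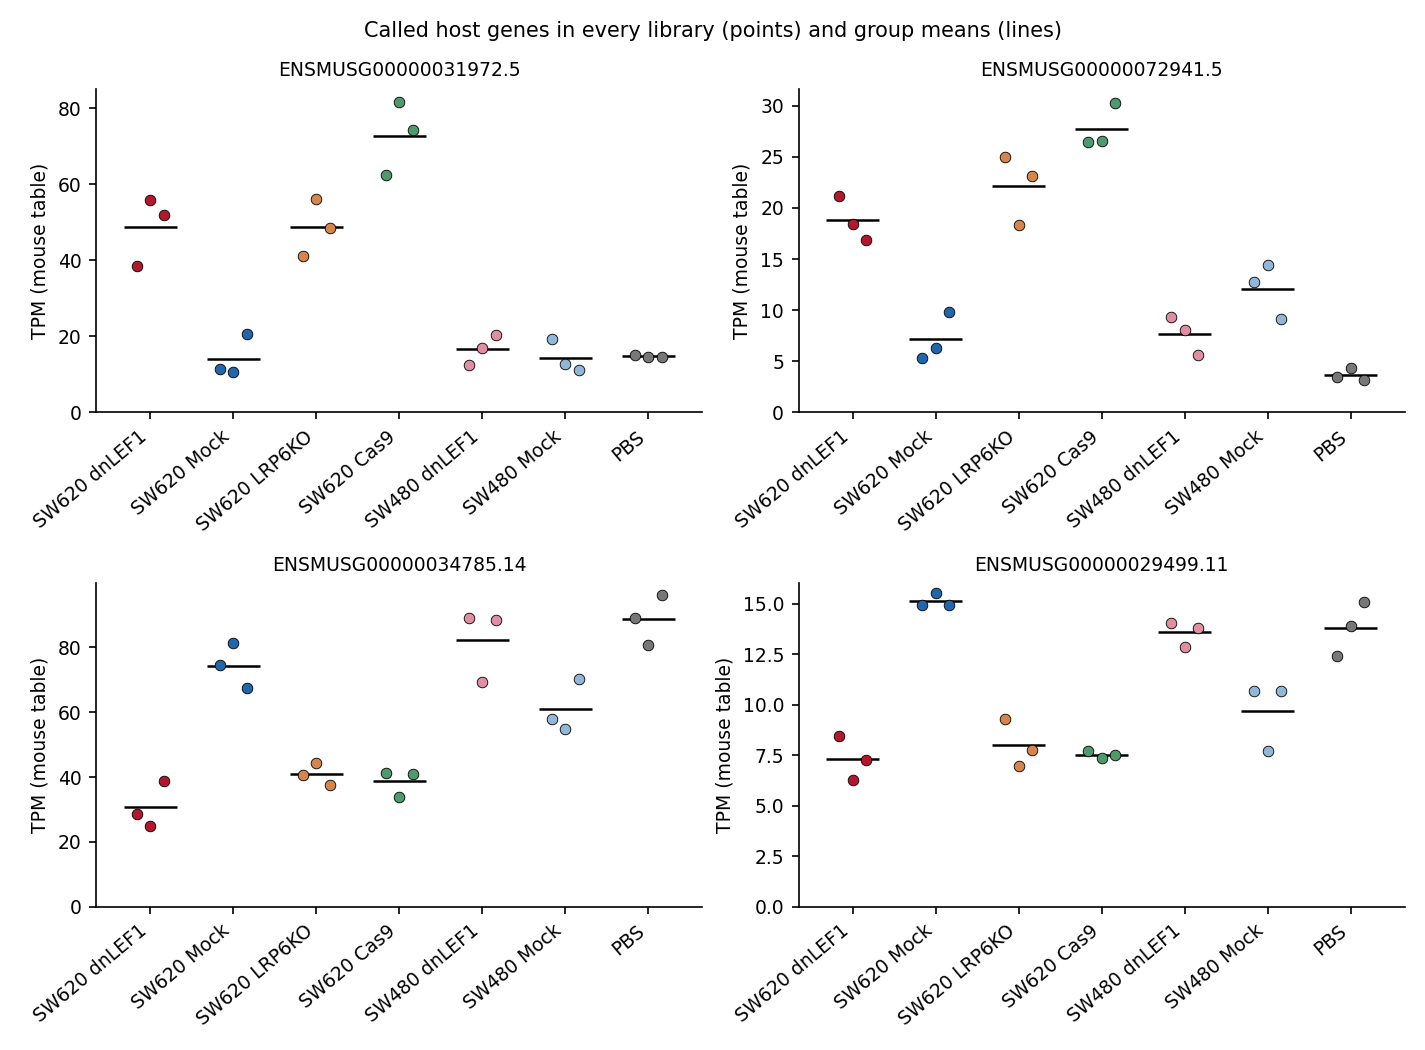
TPM of the 4 called host genes given by identifier in every library of the 7 groups; points are libraries, lines are group means, and each y axis starts at 0. In all 4 panels the SW620 dnLEF1 points lie clear of the SW620 Mock points and beside or nearer to those of SW620 LRP6KO and SW620 Cas9.

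The calls depended on which libraries entered the fit. With only the 6 SW620 dnLEF1 and SW620 Mock libraries in the fit, 9 genes were called and none of the 5 was among them; the 4 named genes then had limma adjusted p from 0.176 to 0.247. No gene was called without SW620 dnLEF1 replicate 2 (2069 genes with an unadjusted limma p under 0.05) or without SW620 Mock replicate 1 (1839 genes). Without SW620 Mock replicate 2 the count was 2, without SW620 dnLEF1 replicate 3 it was 12, and without SW620 Mock replicate 3 it was 143, of which 107 were higher and 36 lower in SW620 dnLEF1. All 5 called genes were among those 143. Library weights estimated by limma gave 319 calls, 199 higher and 120 lower, which again held all 5. The 4 named genes kept their direction under all 14 alternatives tried for each.

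The 3 SW620 dnLEF1 and 3 SW620 Mock libraries did not overlap in 3430 of 19672 genes (17.4%), of which 1428 (7.26%) were higher and 2002 (10.2%) lower in SW620 dnLEF1. This share was larger for abundant genes, at 10.8% of the 3031 genes with a mean under 1 TPM over all 21 libraries, 17.6% of the 7815 genes at 5 to 50 TPM, and 41.6% of the 322 genes at 500 TPM or more. The median SD within SW620 dnLEF1 was 0.25 log2 units in the lowest of these classes and 0.14 in the highest. Among the 2423 genes at 50 to 500 TPM, 164 were higher without overlap and 576 lower, and the median log2 change was -0.11. TPM have a fixed sum, and the top 100 genes of a library held 37.7, 34.3 and 34.7% of it in SW620 dnLEF1. In SW620 Mock they held 34.4, 31.7 and 31.3%, and the part of this in the split was not tested. In the class of 500 TPM or more the split was even, with 66 higher and 68 lower and a median change of -0.05.

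Of 10991 genes with at least 5 TPM in the higher group, 271 were at least 2-fold higher and 323 at least 2-fold lower in SW620 dnLEF1 on the log2(TPM + 1) scale. The groups did not overlap in 112 of the 271 genes and in 109 of the 323, against 17.4% of all 19672 tested genes. A choice by 2-fold change favours groups that do not overlap, so these counts describe the genes only. Some genes were listed at 0 in a whole group. There were 12 genes above 0 in all 3 SW620 dnLEF1 libraries and listed at 0 in all 3 SW620 Mock libraries, and 74 with the opposite pattern. With a mean of at least 5 TPM in the group where they were seen, these were 5 and 8 genes. The SW620 dnLEF1 libraries also had fewer genes above 0, as given above, and the part of this in the 74 genes was not tested.

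The 99 genes at the looser threshold were followed through all 7 groups. The other 5 groups entered their choice through the filter and the estimate of spread, and not through the change between SW620 dnLEF1 and SW620 Mock. The 60 higher genes had log2 changes from 0.54 to 4.82 with a median of 1.19, and 40 of them were at least 2-fold higher. Their median level, as log2(TPM + 1) over the genes of a library, was 3.83, 4.26 and 4.22 in SW620 dnLEF1, against 2.66, 2.54 and 3.04 in SW620 Mock, a gap that the choice of genes fixes. In the other SW620 groups and PBS, it was 3.40, 3.55 and 3.73 in SW620 LRP6KO and 4.10, 3.93 and 4.26 in SW620 Cas9, against 2.15, 2.30 and 2.09 in PBS. The SW620 Cas9 libraries thus lay in the SW620 dnLEF1 range, and PBS below all SW620 Mock libraries. In SW480 hosts the level was 2.85, 2.45 and 2.42 with dnLEF1 and 3.19, 2.99 and 2.87 with Mock, so that the SW480 dnLEF1 libraries were the lower ones.

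The 39 lower genes were more abundant. Their median log2 change was -0.80, and 18 of them reached a mean of 100 TPM or more in the higher group, against 9 of the 60 higher genes. Their median level was 5.53, 5.68 and 5.89 in SW620 dnLEF1, against 6.52, 6.39 and 6.26 in SW620 Mock. It was 5.72, 5.79 and 5.71 in SW620 LRP6KO and 5.71, 5.77 and 5.82 in SW620 Cas9, against 6.81, 6.62 and 6.70 in PBS. SW480 dnLEF1 libraries were at 6.35, 6.51 and 6.55, and SW480 Mock libraries at 6.07, 6.06 and 6.19. Both sets of genes placed SW620 LRP6KO and SW620 Cas9 on the side of SW620 dnLEF1, and the direction between dnLEF1 and Mock in SW480 hosts was the opposite of that in SW620 hosts. The number of mouse genes above 0 TPM was 25815, 29598 and 25328 in SW620 Cas9, against 29434, 34060 and 33355 in PBS, and its part in these levels was not tested.

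**Figure D4:**
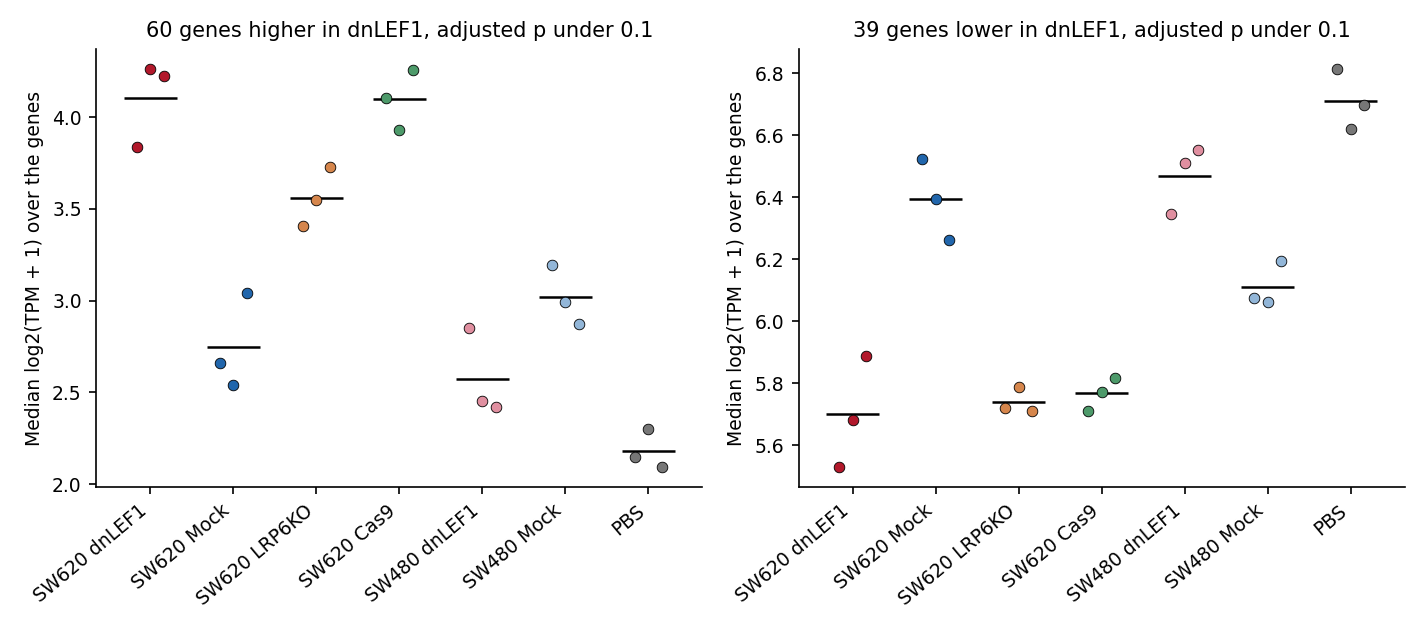
Median log2(TPM + 1) over the 60 genes higher (left) and the 39 genes lower (right) in SW620 dnLEF1 at an adjusted p under 0.1, in each library of the 7 groups; points are libraries and lines are group means, and the y axes do not start at 0. The gap between SW620 dnLEF1 and SW620 Mock follows from the choice of genes; the levels of the other 5 groups do not enter the change, but their spread enters the adjusted p.

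Against PBS caecum, limma called 2285 of 19672 host genes (11.6%) in SW620 dnLEF1, 1699 higher (8.64%) and 586 lower (2.98%), and 535 (2.72%) in SW620 Mock, 524 higher (2.66%) and 11 lower (0.0559%). These comparisons share the PBS libraries, and the difference between their counts was not tested. The 4 named genes had log2 differences from PBS of 1.64, 2.09, -1.52 and -0.83 in SW620 dnLEF1 hosts, in the order ENSMUSG00000031972.5, ENSMUSG00000072941.5, ENSMUSG00000034785.14 and ENSMUSG00000029499.11, each called (limma adjusted p from 1.11e-05 to 7.39e-04). In SW620 Mock hosts the same differences were -0.11, 0.77, -0.25 and 0.13, with limma adjusted p from 0.0628 to 0.945.

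SW620 dnLEF1 hosts were also compared with SW620 Cas9 hosts, a comparison added after the values of the called genes had been seen. By limma, 2 of 19672 genes (0.0102%) were called. Both were lower in SW620 dnLEF1 (0.0102%), by 0.80 and 1.12 on the log2 scale, and none was higher (0%). Before adjustment, 1352 genes (6.87%) had a limma p under 0.05, with 314 higher and 1038 lower in SW620 dnLEF1. None of the 4 named genes was called. Their unadjusted limma p were 0.0287, 0.0204, 0.0408 and 0.757, in the order that follows. ENSMUSG00000031972.5 differed by -0.58 (standard error 0.24, limma adjusted p 0.669), ENSMUSG00000072941.5 by -0.54 (0.21, 0.635), ENSMUSG00000034785.14 by -0.35 (0.16, 0.703) and ENSMUSG00000029499.11 by -0.04 (0.14, 0.980). For both genes that were higher than in SW620 Mock, the SW620 dnLEF1 mean was below the SW620 Cas9 mean. The comparison shares its SW620 dnLEF1 libraries with the one against SW620 Mock. With median-ratio scaling, no gene was called (1193 with an unadjusted limma p under 0.05). The count was also 0 without SW620 dnLEF1 replicate 2, SW620 Cas9 replicate 2 or SW620 Cas9 replicate 3 (1406, 1023 and 1056 genes with an unadjusted limma p under 0.05), and 1 without SW620 dnLEF1 replicate 3 or SW620 Cas9 replicate 1. Without SW620 dnLEF1 replicate 1 it was 3, all higher in SW620 dnLEF1.

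Did the host change with dnLEF1 differ between SW620 and SW480 tumours? These groups share no library. The change in SW620 hosts minus that in SW480 hosts was called by limma in 136 of 19672 genes (0.691%), 48 upward (0.244%) and 88 downward (0.447%), and 3108 genes (15.8%) had an unadjusted p under 0.05. After median-ratio scaling of the libraries, 88 genes were called, 45 upward and 43 downward. By comparison, SW480 dnLEF1 against SW480 Mock gave 6 called genes (0.0305%). The 4 named genes were among the 136, which their choice favours, since they were picked for a large SW620 change and that change is part of the difference. The difference was 1.54 for ENSMUSG00000031972.5 (standard error 0.34, limma adjusted p 0.0468), whose SW480 change was 0.22. It was 1.92 for ENSMUSG00000072941.5 (0.30, adjusted p 0.0122), which had 7.66 ± 1.92 TPM in SW480 dnLEF1 and 12.1 ± 2.68 TPM in SW480 Mock hosts (SD, n = 3 each).

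For the genes that fell in SW620 dnLEF1 hosts, the SW480 values ran the other way. ENSMUSG00000034785.14 was at 82.3 ± 11.3 TPM in SW480 dnLEF1 and 61.0 ± 8.13 TPM in SW480 Mock hosts (SD, n = 3 each), and the difference between the lines was -1.70 (standard error 0.22, limma adjusted p 0.00324). ENSMUSG00000029499.11 was at 13.6 ± 0.62 TPM in SW480 dnLEF1 and 9.69 ± 1.73 TPM in SW480 Mock hosts (SD, n = 3 each), with a difference of -1.42 (standard error 0.19, limma adjusted p 0.00404). None of the 4 SW480 changes was called on its own, with limma adjusted p from 0.374 to 0.726. Of the 136 genes, 4 were called in SW620 and 6 in SW480.

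Over the 11474 genes with at least 5 TPM in a group of either comparison, the changes in the lines had a Pearson's r of 0.02 and a Spearman's rho of -0.22, across genes that are not independent replicates. Over all 19672 tested genes, the groups did not overlap in 3430 (17.4%) in SW620 and in 2555 in SW480. Both lines lacked overlap in the same direction for 131 genes, and in opposite directions for 376. Whether these counts differ from those of unrelated changes was not tested. Among the 136 called differences, the SW620 change was above 0 and the SW480 change below 0 in 45, and the reverse held in 87. A called difference favours changes of opposite sign, so these counts describe the genes only. The count rested on single libraries. Leaving out SW620 dnLEF1 replicate 1, 2 or 3 gave 55, 49 or 94 genes, and leaving out SW620 Mock replicate 1, 2 or 3 gave 8, 16 or 372. In SW480, leaving out dnLEF1 replicate 1, 2 or 3 gave 739, 22 or 28 genes, and leaving out Mock replicate 1, 2 or 3 gave 72, 63 or 391. SW480 Mock replicate 2 stood apart from its group on the first component, with a score of -50.1 against -10.9 and -21.5. It had 7.04% of its TPM in its top gene, against 1.45% and 2.35%. On the second component SW480 Mock replicate 3 stood apart, at 15.6 against -33.1 and -56.5. With only these 12 libraries in the fit, 2 genes were called.

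**Figure D5:**
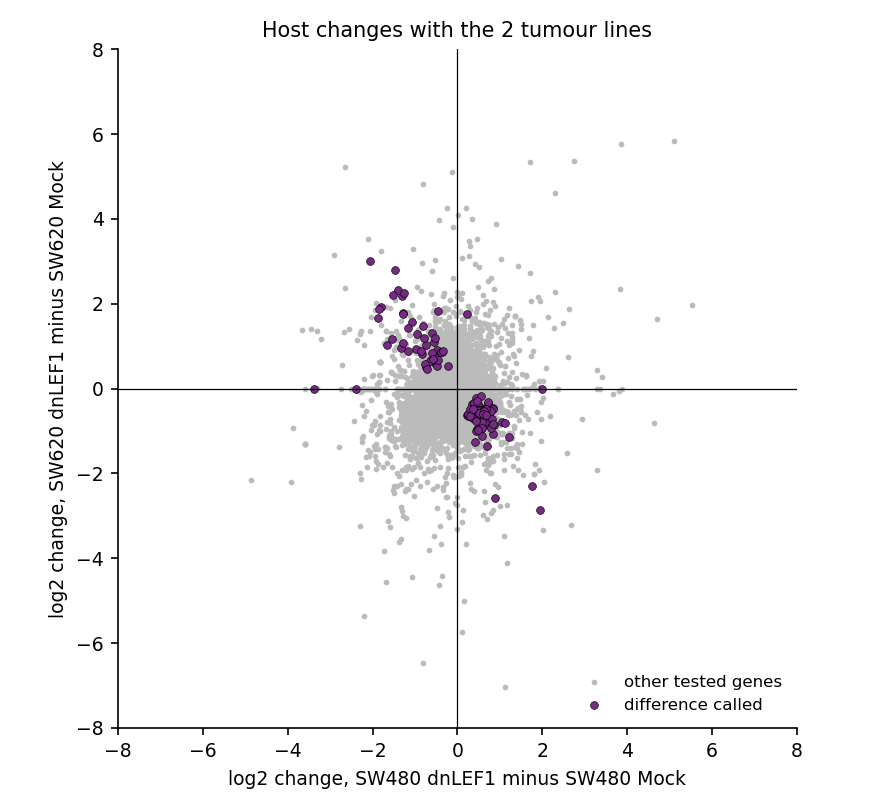
Log2 change of each tested host gene in SW620 hosts (dnLEF1 minus Mock, y axis) against that in SW480 hosts (dnLEF1 minus Mock, x axis). Purple points are the 136 genes whose difference between the lines was called, most of them at the upper left and lower right.

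The SW620 dnLEF1 change was also set against the change of SW620 LRP6KO relative to SW620 Cas9, the other way in which the study disturbed Wnt signalling in this line. SW620 LRP6KO against SW620 Cas9 gave 0 called host genes by limma (0%) and 910 (4.63%) with an unadjusted p under 0.05. The difference of the changes was called in 2 genes (0.0102%), 1 upward (0.00508%) and 1 downward (0.00508%). Before adjustment, 1962 genes (9.97%) had a limma p under 0.05. The called downward difference had a size of 8.07 on the log2 scale. That gene is not a named gene, and its values in single libraries are not given here. ENSMUSG00000031972.5, picked for its SW620 change, which favours this, was the called upward difference, at 2.33 (standard error 0.34, limma adjusted p 0.0298), with a change of -0.57 in SW620 LRP6KO hosts. Its mean was 48.7 TPM in SW620 dnLEF1 and 48.6 TPM in SW620 LRP6KO hosts, against 14.2 TPM in SW620 Mock and 72.7 TPM in SW620 Cas9. For this gene the levels thus differed between the control groups, and hardly between SW620 dnLEF1 and SW620 LRP6KO. The other 3 named genes, in the order described above, had differences of 1.64, -1.35 and -1.03 with limma adjusted p of 0.0784 to 0.0924. The count of differences was 0 without SW620 Mock replicate 2, SW620 LRP6KO replicate 1, SW620 LRP6KO replicate 2 or SW620 Cas9 replicate 3 (1531, 1678, 1777 and 1642 genes with an unadjusted limma p under 0.05). It was 1 without SW620 Mock replicate 1, 4 without SW620 Cas9 replicate 2, 5 without SW620 dnLEF1 replicate 1, 7 without SW620 LRP6KO replicate 3 and 56 without SW620 Mock replicate 3. SW620 LRP6KO replicate 1, with 37521 mouse genes above 0 TPM and a first component score of -20.9, stood apart from the other libraries of its group, at 27059 and 26095 genes and scores of 29.9 and 48.5.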

How the data were processed

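RNA from frozen caecum pieces with an RNA integrity number of at least 9 was made into Smart-seq2 libraries, per the labels' protocols. The authors deposited TPM per gene in 1 table for human and 1 for mouse genes. Trimmomatic 0.35, Bowtie 1.2 and RSEM 1.2.31 with builds hg38 and mm10 are listed in the submitters' processing notes. How reads of the 2 species were separated is not given in the sources used here, so human reads counted as mouse were not assessed. Because depth cannot be had from TPM, counting intervals and floors are left out.

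Mouse genes reaching 1 TPM in 3 or more of the 21 libraries were tested with limma 3.58.1 in R 4.3.3 on log2(TPM + 1), with an intensity trend, a mean per group and all 7 groups in the fit. The Benjamini-Hochberg adjustment ran over all genes tested, within each comparison, at 0.05. The script was tested on simulated data. Named genes were the 2 largest called changes each way among genes reaching 5 TPM in the higher mean and with groups that did not overlap, the number that the rule sets where identifiers have no symbols. Joining the 43 prepared gene lists to mouse identifiers failed, so these lists were not used. The comparison and its tests were chosen with earlier results of these data known. Alternatives were another pseudocount, other filters, median-ratio scaling, only the groups compared, array weights, a replicate block and each library left out. A threshold of 0.1, leaving out 2 libraries together and the comparison with SW620 Cas9 were added after seeing the data. Figures used Python 3.11.15, numpy 2.4.6, pandas 2.3.3 and matplotlib 3.10.9.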

Additional observations from a re-analysis of the deposited data

Results flagged for a closer look

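The change of the host with dnLEF1 differed between SW620 and SW480 tumours in 136 genes by limma's test of the difference itself (adjusted p under 0.05). The 4 named genes, whose choice for a large SW620 change favours this, were among them, with differences (SW620 minus SW480, log2 scale) of 1.54 for ENSMUSG00000031972.5, 1.92 for ENSMUSG00000072941.5, -1.70 for ENSMUSG00000034785.14 and -1.42 for ENSMUSG00000029499.11. The SW620 dnLEF1 change and the SW620 LRP6KO change differed in 2 genes by the same kind of test, and ENSMUSG00000031972.5 was among them, with a difference of 2.33, which its choice favours in the same way. The mean of this gene was 48.7 TPM in SW620 dnLEF1 and 48.6 TPM in SW620 LRP6KO hosts, against 14.2 TPM in SW620 Mock and 72.7 TPM in SW620 Cas9, the control groups.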

How the results depend on the processing

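For SW620 dnLEF1 against SW620 Mock (5 called), the count was 15 with a pseudocount of 0.1, 3 without a filter on low values, 16 with at least 5 TPM in 3 libraries, 9 with only the groups compared, 319 with array weights, 99 at an adjusted p of 0.1, and 0 to 143 with each library left out. Median-ratio scaling gave 7. For the difference from SW480 (136 called), these counts were 143 with a pseudocount of 0.1, 53 without a filter and 273 with at least 5 TPM. They were 88 with median-ratio scaling, 2 with only the groups compared and 1557 with array weights. They were 568 at 0.1 and 8 to 739 with each library left out. For the difference from SW620 LRP6KO (2 called) they were 0 without a filter (3365 genes with an unadjusted limma p under 0.05), 64 with array weights, 24 at 0.1 and 0 to 56 with each library left out. For SW620 Cas9 (2 called) they were 0 without a filter (2124 with an unadjusted limma p under 0.05), 0 with median-ratio scaling (1193), and 0 to 3 with each library left out. Without SW480 Mock replicate 2 and SW620 LRP6KO replicate 1 together, the counts were 4, 50, 3 and 4. The causes were not tested. No named gene reversed its direction. ENSMUSG00000072941.5 passed in 6 of 14 alternatives, ENSMUSG00000031972.5 and ENSMUSG00000029499.11 in 10 each and ENSMUSG00000034785.14 in 11. Deviations from the group mean of SW620 dnLEF1 and SW620 Mock libraries with the same replicate number correlated at 0.028, 0.001 and 0.041. On this ground the main fit did not take the numbers as pairs. On the second component, however, SW620 dnLEF1 replicates 1, 2 and 3 scored 22.4, 16.3 and -13.8. The SW620 Mock replicates scored 25.6, 16.8 and -11.8, in the same order. The other groups did not follow this order. Whether libraries of the same number share a source was not tested. With the replicate number as a block, the counts were 6 for SW620 dnLEF1 against SW620 Mock, 61 for the difference from SW480, 1 for that from SW620 LRP6KO and 0 against SW620 Cas9 (1248 with an unadjusted limma p under 0.05). Of the 3 SW620 dnLEF1 libraries, 2 correlated best with the SW620 Mock library of their own number. Since TPM keep no depth, which low genes were sequenced too shallowly to test is unknown.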
